A study of Mus musculus with 4 samples.

Results

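Transforming growth factor-beta (TGF-beta) signaling in the airspace cells of bleomycin-administered mice was examined through 10 genes. They were the ligand genes Tgfb1, Tgfb2 and Tgfb3, the latency and activation genes Ltbp1 and Thbs1, the receptor genes Tgfbr1 and Tgfbr2, the Smad genes Smad3 and Smad7, and the target gene Ccn2, formerly named Ctgf. The genes were picked by name and role, with earlier results of these data known. Every non-control probe whose accession belongs to one of them was kept, which gave 14 of the 39429 probes on the array. Of the 14, 12 probes of 9 genes were well above background on all 4 arrays, and 2 probes, the one of Ltbp1 and the dimmer one of Smad3, did not rise clearly above background on any array.

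The RNA came from BALF cells, the cells that come out when the airways are rinsed with buffer, of wild-type and S1pr2-/- littermates on a mixed 129Ola;C57BL/6J background. S1pr2-/- mice carry a targeted disruption of the gene for S1PR2, a G protein-coupled receptor of sphingosine-1-phosphate, in every cell of the body. Both genotypes received bleomycin, a drug that injures the lung and leads to fibrosis, by intraperitoneal injection at 0.035 U/g, 2 times weekly, and the cells were taken on day 22. There were 2 one-color arrays per genotype and no saline arrays among them, so these data hold no measure of what bleomycin itself did to the genes. The labels give no age, the methods describe young adult mice, and whether an array held RNA of 1 mouse or of several is not given in the sources used here. The p-values below therefore set a difference against the spread between 2 RNA samples of each genotype. Those from limma also draw on the spread of all other probes tested.

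The targeted gene went against its label. The S1pr2 probe read -0.13 and -0.16 in wild-type samples, against 2.67 and 2.54 in samples labelled S1pr2-/-, that is 6.72-fold higher on the latter (adjusted p = 0.333 from limma). The cause of this higher signal was not tested, and neither was whether the labels were exchanged. Every direction given here follows the labels and would turn if the labels of the genotypes were exchanged. The labels also name the cells alveolar macrophages. The 9 genes listed as markers of that cell (among them Marco, Siglecf and Fabp4) had a probe well above background on every array, with log2 values of at least 4.03. The median of their differences was -0.03, and limma placed 0 of the 9 at an unadjusted p under 0.05. Other cells were present too, since probes of the T cell genes Cd3e and Cd4 were above the 75th percentile of each array. Of the 5 tested eosinophil genes, 4 were lower on the arrays labelled S1pr2-/- at an unadjusted limma p under 0.05. Of all named genes with a tested probe, 5.95% were lower in this way. The median over the eosinophil list was -4.47. All values are log2 of the background-corrected intensity over the 75th percentile of the array, so that 0 is the level of that percentile, and differences are S1pr2-/- minus wild-type on that log2 scale. The 75th percentiles lay between 2489 and 2817 intensity units.

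TGF-beta is made as a precursor that stays bound to its own propeptide, and this latent complex is held in the matrix by latent TGF-beta binding proteins such as LTBP1 until integrins, proteases or thrombospondin-1 release it. The free ligand brings together the type II receptor TGFBR2 and the type I receptor TGFBR1, a kinase that phosphorylates SMAD2 and SMAD3, which enter the nucleus with SMAD4. SMAD7 is an inhibitor that the pathway itself induces, and CCN2 (connective tissue growth factor) is a matricellular target gene product. In the fibrotic lung TGF-beta is known as a driver of myofibroblast differentiation and collagen deposition, and macrophages are one of its sources.

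The promoters of 3 of the ligand and receptor genes with a window are shown. They are Tgfb1, the ligand gene best known in fibrosis, and Tgfb2, whose arrays varied most among the ligands. The third is Tgfbr2, the one gene with a higher value at an unadjusted p under 0.05 from limma. No window was available here for Tgfb3, the one ligand gene with a lower value at that threshold. Each is the 250 bases before the RefSeq start in the build GRCm38.p6, written 5′ to 3′ on the strand of the gene, at chr7:25686752-25687001 on the plus strand for Tgfb1, chr1:186705990-186706239 on the minus strand for Tgfb2 and chr9:116175364-116175613 on the minus strand for Tgfbr2. Capitals mark the letters CAGAC or GTCTG, the core of the SMAD-binding element on either strand.
Tgfb1: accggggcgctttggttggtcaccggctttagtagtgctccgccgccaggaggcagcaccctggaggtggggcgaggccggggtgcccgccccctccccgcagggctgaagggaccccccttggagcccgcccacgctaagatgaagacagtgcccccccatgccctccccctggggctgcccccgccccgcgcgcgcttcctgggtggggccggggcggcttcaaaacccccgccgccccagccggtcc
Tgfb2: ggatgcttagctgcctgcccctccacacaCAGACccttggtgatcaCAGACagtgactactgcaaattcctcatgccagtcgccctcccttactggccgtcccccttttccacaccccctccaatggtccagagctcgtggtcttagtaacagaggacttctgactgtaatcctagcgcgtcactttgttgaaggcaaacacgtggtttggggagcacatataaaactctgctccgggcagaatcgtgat
Tgfbr2: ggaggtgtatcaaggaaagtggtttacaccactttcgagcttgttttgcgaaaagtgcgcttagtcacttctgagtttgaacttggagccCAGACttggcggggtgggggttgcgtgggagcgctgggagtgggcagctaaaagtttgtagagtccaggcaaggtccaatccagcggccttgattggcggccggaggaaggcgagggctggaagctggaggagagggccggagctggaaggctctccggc
The Tgfb1 window held these letters 0 times, the Tgfb2 window 2 times, starting 221 and 204 bases before the start, and the Tgfbr2 window 1 time, 160 bases before it. Among all 32851 windows of this length in the table, 42.2% held the letters and 11.7% held them 2 times or more. Windows were counted for 6 of the 10 genes, 8 in all, and 5 of these held the letters. The chromosome that carries Smad7 was left out of this count but kept among the 32851 windows. A match is a stretch of letters and was not tied to binding or to a level in these cells.

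Across the 10 genes, differences between the genotypes were small for the ligands and receptors and larger, at 1.65-fold and 1.66-fold, for Smad7 and Ccn2, which were both lower on the arrays labelled S1pr2-/-. After Benjamini-Hochberg adjustment over all 27161 probes tested, limma called 0 of the 9 tested genes in either direction, and 0% of the 15432 named genes with a tested probe were called lower or higher. At an unadjusted p under 0.05, 3 of the 9 were lower (Tgfb3, Smad7 and Ccn2), beside 5.95% of all named genes, and 1 was higher (Tgfbr2), beside 4.54%. The genotypes did not overlap for 5 of the 9 genes: the arrays labelled S1pr2-/- were the lower ones for 4 (the same 3 and Tgfbr1), beside 21.9% of all named genes, and the higher ones for 1 (Tgfbr2), beside 22.1%. The median difference over the 9 genes was -0.28, against 0 over all named genes. That median rested on S1pr2-/- replicate 2: without this array it was -0.03. The count of 3 lower genes was 1 without that array and 1 without wild-type replicate 2, and with any 1 of the 4 arrays left out 0 genes were higher. With 2 arrays per genotype, an exact two-sided permutation test cannot give a p below 0.333 for a single gene.

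**Figure D1:**
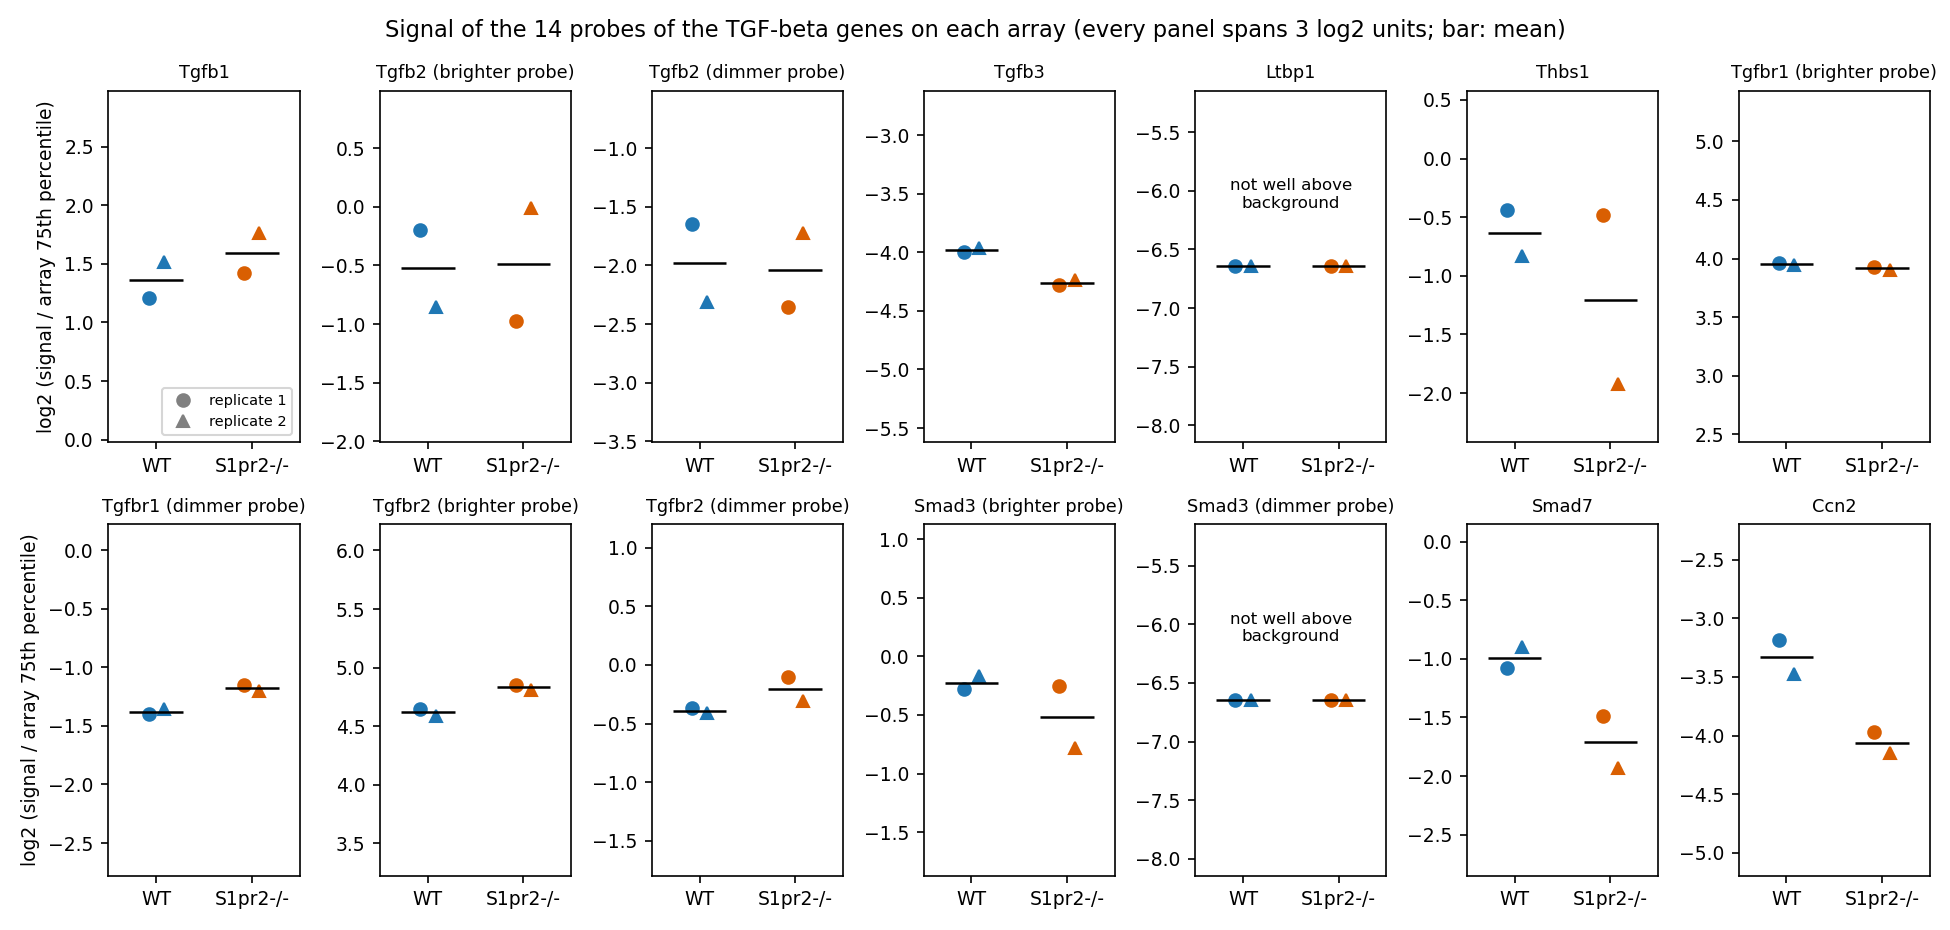
Level of each of the 14 probes on each array, in log2 units relative to the 75th percentile of the array (vertical axis), with wild-type (WT) in blue, arrays labelled S1pr2-/- in orange, circles for replicate 1, triangles for replicate 2 and bars for the mean of a genotype. Every panel spans the same height, so that the gaps for Smad7 and Ccn2 can be set against the spread for Tgfb2 and Thbs1, where the arrays of 1 genotype lay far apart.

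Of the 3 ligand genes, Tgfb1 and Tgfb2 did not differ beyond the spread between arrays, and Tgfb3 was slightly lower on the arrays labelled S1pr2-/-. Tgfb1, the form of the ligand most studied in fibrosis, read 1.21 and 1.52 in wild-type samples, against 1.42 and 1.76 in samples labelled S1pr2-/-. The genotypes overlapped, since wild-type replicate 2 lay above S1pr2-/- replicate 1. The difference was 0.23 (SE 0.186, 95% interval -0.33 to 0.79, adjusted p = 0.696 from limma), and the interval includes 0. In both genotypes replicate 2 read higher than replicate 1. With the replicate number as a block, the SE was 0.061, with a p of 0.051 from limma before adjustment and 0.530 after it. The sign was the same in 16 of 16 alternative settings.

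The Tgfb1 probe was printed in 10 spots on every array, which shows how precisely 1 hybridization was read. The SD over the 10 spots was between 0.028 and 0.054, while the SD between the 2 arrays of a genotype was 0.216 for wild-type and 0.239 for S1pr2-/-. The spread that limits the comparison of Tgfb1 therefore lay between arrays and not between spots.

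Tgfb2 encodes a second ligand isoform that depends on the co-receptor betaglycan to bind the type II receptor. Its brighter probe read -0.20 and -0.85 in wild-type samples, against -0.97 and -0.01 in samples labelled S1pr2-/-. Its dimmer probe read -1.65 and -2.31 in wild-type samples, against -2.35 and -1.72 in samples labelled S1pr2-/-. Both probes were high on wild-type replicate 1 and S1pr2-/- replicate 2 and low on the other two arrays, so that 1 array of each genotype stood apart in the same way on both. The difference was 0.04 (SE 0.459, adjusted p = 0.994 from limma) on the brighter probe and -0.06 (SE 0.362, adjusted p = 0.975 from limma) on the dimmer one. With 1 array left out, the brighter probe gave -0.45 to 0.52, so the arrays set no direction for Tgfb2.

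Tgfb3, the third isoform, was read by a dim probe, between 136.8 and 160.1 intensity units per array, also printed in 10 spots. It read -4.00 and -3.96 in wild-type samples, against -4.28 and -4.24 in samples labelled S1pr2-/-, so the genotypes did not overlap. The software marked 3 of the 10 spots as outliers on wild-type replicate 1, and the SD over the spots that were kept was between 0.034 and 0.126. The difference was -0.28 (SE 0.059, 95% interval -0.46 to -0.10), or 1.21-fold lower, with a p of 0.015 from limma before adjustment and 0.509 after it. Of 16 alternative settings, 13 left the p of limma or of the methods' t-test under 0.05 before adjustment. Under quantile normalization the difference was -0.16 (unadjusted p = 0.140 from limma), which is 1 of the 3 that did not.

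**Figure D2:**
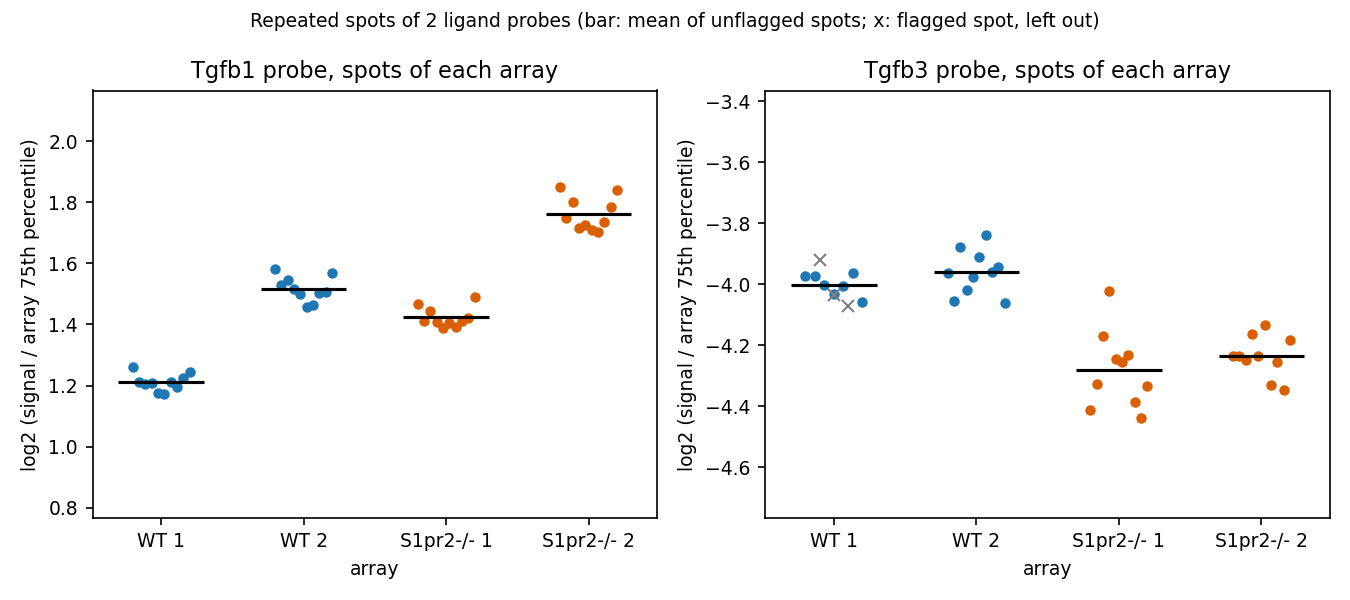
Single spots of the Tgfb1 probe (left) and the Tgfb3 probe (right) on each of the 4 arrays, in log2 units relative to the 75th percentile of the array, with bars for the mean of the spots that were kept and crosses for the 3 spots left out. For Tgfb1 the arrays of a genotype stood further apart than the spots of an array, and for Tgfb3 the 2 arrays of a genotype lay within 0.05 of each other while the genotypes differed by 0.28.

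Of the latency and activation genes among the 10, Thbs1 did not differ beyond the spread between arrays and Ltbp1 could not be compared. Ltbp1, which encodes the protein that tethers the latent complex to the matrix, stayed at background on each of the 4 arrays, with between 6.83 and 9.41 intensity units, and was not tested. Thbs1 encodes thrombospondin-1, a platelet and macrophage glycoprotein that can activate latent TGF-beta. It read -0.44 and -0.83 in wild-type samples, against -0.48 and -1.92 in samples labelled S1pr2-/-, so that S1pr2-/- replicate 2 alone lay below the rest. The difference was -0.57 (SE 0.584, 95% interval -2.34 to 1.21, adjusted p = 0.748 from limma), and without S1pr2-/- replicate 2 it was 0.15.

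The marker genes Treml1 and S100a9, picked after their values were seen, were also lowest on S1pr2-/- replicate 2. The share of all genes lowest on that array was not counted. The median difference between the genotypes was 0.08 over the 3 tested platelet genes and -0.11 over the 7 tested neutrophil genes. Treml1, a gene of platelets, read -0.70 and -0.50 on the wild-type arrays, -0.30 on S1pr2-/- replicate 1 and -1.48 on S1pr2-/- replicate 2. S100a9, an abundant neutrophil and monocyte gene, read 3.50, 3.74 and 3.15 in the same order and 1.16 on S1pr2-/- replicate 2. The summed level of the 7 platelet genes was 2.33 and 2.40 times the 75th percentile in wild-type samples, against 3.67 and 2.02 in samples labelled S1pr2-/-. The defining platelet genes Gp9 and Gp5 were at the floor on all 4 arrays, and 3 of the 7 could be tested, of which limma placed 0 at an unadjusted p under 0.05. The part of these cells in the Thbs1 values was not tested.

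The receptor genes had closely repeated values, and both probes of Tgfbr2 were slightly higher on the arrays labelled S1pr2-/-. The brighter probe of Tgfbr2, the gene of the ligand-binding type II receptor, read 4.65 and 4.59 in wild-type samples, against 4.85 and 4.81 in samples labelled S1pr2-/-. The difference was 0.21 (SE 0.061, 95% interval 0.03 to 0.40), or 1.16-fold higher, with a p of 0.035 from limma before adjustment and 0.518 after it. Omitting any single array gave 0.18 to 0.24, but 7 of the 16 alternative settings left the unadjusted p under 0.05. The dimmer probe read -0.36 and -0.41 in wild-type samples, against -0.10 and -0.31 in samples labelled S1pr2-/-, also without overlap, with a difference of 0.18 (SE 0.100, adjusted p = 0.609 from limma).

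The 2 probes of Tgfbr1, the gene of the type I receptor kinase, disagreed in sign. The brighter one read 3.96 and 3.94 in wild-type samples, against 3.93 and 3.90 in samples labelled S1pr2-/-, a difference of -0.04 (SE 0.055, adjusted p = 0.828 from limma) that was below the wild-type arrays without overlap and yet 1.03-fold in size. The dimmer one read -1.40 and -1.36 in wild-type samples, against -1.15 and -1.21 in samples labelled S1pr2-/-, a difference of 0.20 (SE 0.060) with a p of 0.039 from limma before adjustment and 0.518 after it. The sign for the gene thus depended on the probe, and the mean over both probes gave 0.08.

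Among the Smad genes, the inhibitor Smad7 was lower on the arrays labelled S1pr2-/- and the signal transducer Smad3 did not differ beyond the spread. The brighter probe of Smad3 read -0.28 and -0.17 in wild-type samples, against -0.25 and -0.79 in samples labelled S1pr2-/-. S1pr2-/- replicate 1 lay between the wild-type arrays and S1pr2-/- replicate 2 below them, and the difference was -0.29 (SE 0.220, 95% interval -0.96 to 0.37, adjusted p = 0.684 from limma). Without S1pr2-/- replicate 2 it was -0.03. The other Smad3 probe, with between 8.95 and 18.8 intensity units, stayed at background on each of the 4 arrays.

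Smad7 read -1.08 and -0.90 in wild-type samples, against -1.49 and -1.93 in samples labelled S1pr2-/-, without overlap. The difference was -0.72 (SE 0.193, 95% interval -1.30 to -0.14), or 1.65-fold lower, with a p of 0.029 from limma before adjustment and 0.514 after it. Its sign was the same in 16 of 16 alternative settings and its unadjusted p was under 0.05 in 9 of them. Omitting any single array gave -0.94 to -0.50, the smaller size being without S1pr2-/- replicate 2.

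Ccn2, a gene that TGF-beta induces in many cells, had a dim signal and a difference close in size to that of Smad7. Its probe gave 280.8 and 224.1 intensity units in wild-type samples, against 179.6 and 145.2 in samples labelled S1pr2-/-, or -3.19 and -3.47 against -3.97 and -4.15 on the log2 scale, and all 4 were well above background. Both arrays labelled S1pr2-/- were lower than both wild-type arrays, by 1.66-fold in the mean (95% interval of the difference -1.16 to -0.30, unadjusted p = 0.011 from limma). The unadjusted p was under 0.05 in 15 of 16 alternative settings, and the adjusted p ranged from 0.390 to 0.682 over them. Under normexp background correction, which adds a constant to every signal, the difference was -0.57 (Smad7 -0.68), and under quantile normalization it was -0.64 (Smad7 -0.68).

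Fewer cells of a type and less RNA per cell cannot be told apart in such samples, and the values of 3 marker lists are given beside those of Smad7 and Ccn2. Of the 7 epithelial genes tested, 5 were below the wild-type arrays without overlap, beside 21.9% of all named genes, and 1 (Krt18) was lower at an unadjusted p under 0.05 from limma, beside 5.95%, with a median difference of -0.34 and summed levels of 30.5 and 33.6 on the wild-type arrays against 24.5 and 40.2 on the arrays labelled S1pr2-/-. Of the 4 fibroblast genes tested, 1 (Dcn) was higher at an unadjusted p under 0.05, beside 4.54% of all named genes, with a median of 0.32 and summed levels of 9.58 and 10.68 against 9.97 and 6.58, and the fibroblast genes Pdgfrb and Lum were at the floor on all 4 arrays. The eosinophil list, given above, had summed levels of 76.1 and 88.8 against 67.9 and 82.1, nearly all of it from Ear1, which macrophages also express, while Prg2, Epx, Ccr3 and Il5ra had differences between -5.32 and -3.73. The part of any of these cells in the values of Smad7 and Ccn2 was not tested.

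**Figure D3:**
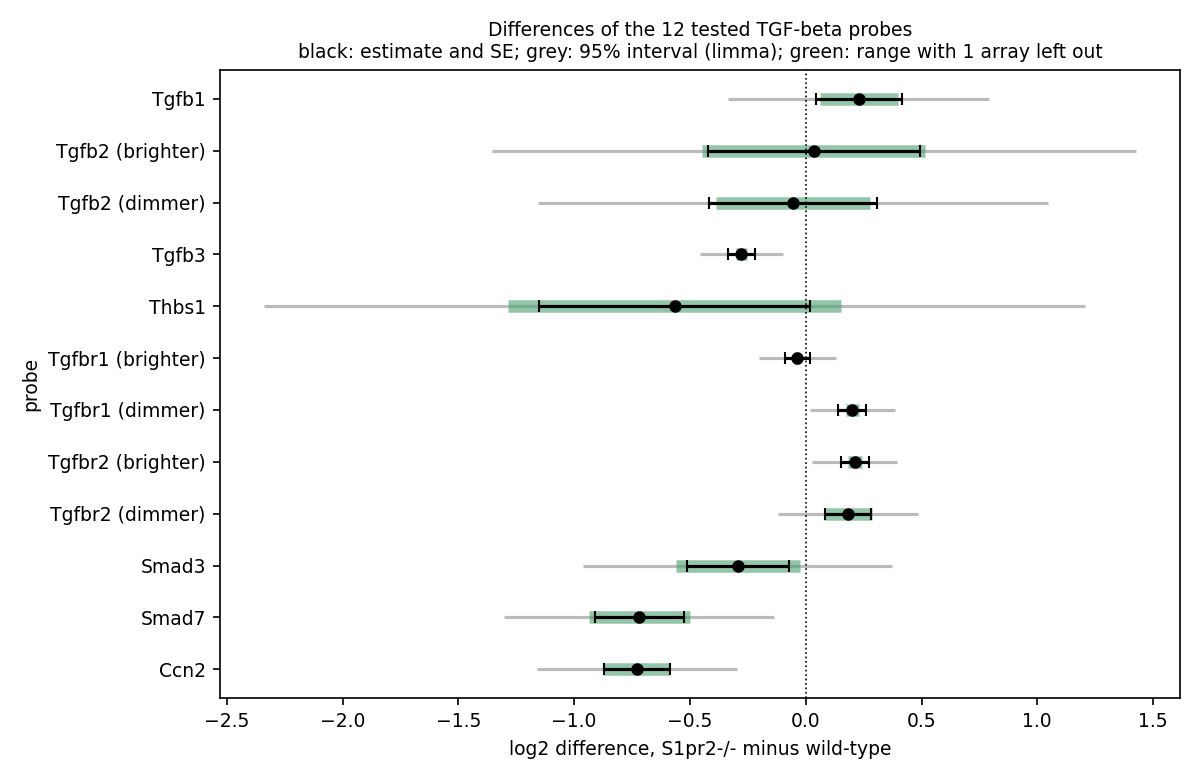
Difference between the genotypes for the 12 tested probes (horizontal axis, S1pr2-/- minus wild-type, log2), with the estimate and its SE in black, the 95% interval from limma in grey and the range with 1 array left out in green. The intervals of Tgfb3, Smad7 and Ccn2 lie below 0, those of the dimmer Tgfbr1 probe and the brighter Tgfbr2 probe lie above it, and those of the other 7 probes include 0.

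The wider pathway was described with a list of 85 further genes, of which 84 had a named probe and 73 could be tested. Of the 73, limma placed 9 lower and 3 higher at an unadjusted p under 0.05 and 0 at an adjusted p under 0.05, beside the 5.95% and 4.54% of all named genes given above. Both arrays labelled S1pr2-/- were below the wild-type arrays for 22 of the 73 and above them for 19, beside 21.9% and 22.1% of all named genes, and the median difference was -0.01. Without wild-type replicate 2 there were 3 lower in place of 9, and without S1pr2-/- replicate 2 there were 5 higher in place of 3. The genes named in the next paragraphs are those with an unadjusted p under 0.05 and a difference of at least 0.5 in size, or with signal in 1 genotype alone.

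Of the 17 tested genes of latency and activation, 3 were lower and 0 higher at an unadjusted p under 0.05 from limma, around a median of 0.01. The shares of all named genes were 5.95% and 4.54%. Lrrc32 encodes GARP, which presents latent TGF-beta on the surface of regulatory T cells and platelets. It read -1.97 and -2.08 in wild-type samples, against -3.10 and -3.71 in samples labelled S1pr2-/-, a difference of -1.38 (SE 0.249, unadjusted p = 0.009, adjusted p = 0.509, limma). With each array left out it lay between -1.69 and -1.07. Beside it, 3 of 6 T cell genes were below the wild-type arrays without overlap, beside 21.9% of all named genes, with a median of -0.36 over the list and summed levels of 12.0 and 12.9 on the wild-type arrays against 11.8 and 8.66 on the arrays labelled S1pr2-/-, and limma placed 0 of the 6 at an unadjusted p under 0.05. The part of T cells or platelets in the Lrrc32 difference was not tested.

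Mmp9, a gelatinase of neutrophils and macrophages that can release latent TGF-beta, read -4.64 and -4.09 in wild-type samples, against -5.42 and -6.63 in samples labelled S1pr2-/-. The last value was next to the floor of -6.64, and the difference was -1.66 (SE 0.524, adjusted p = 0.519, limma), but -0.90 under normexp background correction, -0.87 with the percentile over detected probes and -1.05 without S1pr2-/- replicate 2. Of the 7 neutrophil genes tested, 2 (Cxcr2 and Retnlg) were lower at an unadjusted p under 0.05 from limma, beside 5.95% of all named genes. The median over the list was only -0.11, with summed levels of 35.7 and 50.7 on the wild-type arrays against 31.5 and 22.2. The neutrophil gene Ngp was at the floor on all 4 arrays, and the part of neutrophils in the Mmp9 difference was not tested. Itgb6, the beta chain of the epithelial integrin that activates TGF-beta, read -5.03 and -5.09 in wild-type samples, against -5.72 and -5.55 in samples labelled S1pr2-/-. Its difference of -0.57 (SE 0.086, adjusted p = 0.509, limma) came from a probe close to background and was -0.29 under normexp and -0.18 with the percentile over detected probes.

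Among 9 tested receptors, co-receptors and receptor regulators, 1 was lower and 1 higher at an unadjusted p under 0.05 from limma (all named genes: 5.95% and 4.54%). Neither reached a difference of 0.5. The group's median was 0.12. The 17 tested Smads, co-factors and negative regulators had 0 lower and 1 higher (all named genes: 5.95% and 4.54%). Their median was 0.06, and the genotypes overlapped for 13 of them. Smad2, which shares the role of Smad3, differed by -0.01 (SE 0.061) and Smad4, the common partner, by -0.10 (SE 0.070). Their values are given because they complete the signaling Smads, not because of how they moved.

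Of the 20 tested targets, 2 were lower and 1 higher at an unadjusted p under 0.05 from limma (all named genes: 5.95% and 4.54%). The median of the group was -0.03. Cdkn2b, an inhibitor of the cell cycle that TGF-beta induces in epithelial cells, read 0.29 and 0.55 in wild-type samples, against -0.34 and -0.18 in samples labelled S1pr2-/-, a difference of -0.68 (SE 0.129, unadjusted p = 0.011, adjusted p = 0.509, limma). The matrix genes Postn, Tnc and Lox were at the floor on all 4 arrays. The collagen genes Col1a1, Col1a2 and Col3a1, named after their values were seen, differed by 0.79 (SE 0.456), 0.62 (SE 0.384) and 0.76 (SE 0.261). For each, both arrays labelled S1pr2-/- were above both wild-type arrays, with an unadjusted p above 0.05 from limma. That order held for 6 of the 20 targets, beside 22.1% of all named genes, and 7 were below, beside 21.9%. With 1 array left out the collagen differences fell to as little as 0.21, 0.14 and 0.43.

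Of the 10 tested ligands and antagonists of the wider TGF-beta superfamily, 3 were lower and 0 higher at an unadjusted p under 0.05 from limma. The shares of all named genes were 5.95% and 4.54%. The median was the lowest of the groups, -0.29. With the methods' t-test the unadjusted p was 0.138 for Inhba, 0.119 for Fst and 0.060 for Bmp2. Inhba, which encodes the subunit of activin A, read -2.34 and -1.41 in wild-type samples, against -2.89 and -3.23 in samples labelled S1pr2-/-, a difference of -1.19 (SE 0.390, adjusted p = 0.521, limma) that was -0.72 without wild-type replicate 2. Fst, the gene of follistatin, which binds and blocks activin, read -3.05 and -3.52 against -3.97 and -3.87, a difference of -0.63 (SE 0.195, adjusted p = 0.519, limma) that was -0.40 without wild-type replicate 1.

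Bmp2, a bone morphogenetic protein, read -4.91 and -4.85 in wild-type samples, against -5.34 and -5.65 in samples labelled S1pr2-/-, a difference of -0.62 (SE 0.135, adjusted p = 0.509, limma) that was -0.33 under normexp and -0.36 with the percentile over detected probes. Grem1, the gene of the BMP antagonist gremlin-1, was well above background on both arrays labelled S1pr2-/- and on neither wild-type array. It gave 98.8 and 25.8 intensity units on the former and no more than 18.2 on the latter. That was at least 1.88-fold higher in the mean with the floor used here, and the 25.8 units lay next to that floor. Grem1 passed the filter only through the arrays labelled S1pr2-/-, so no p-value is given for it. Without S1pr2-/- replicate 1 its difference was 0.01 in place of 0.91, so the value rested on that array, and it was 0.21 with the percentile over detected probes and 2.44 with no floor.

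**Figure D4:**
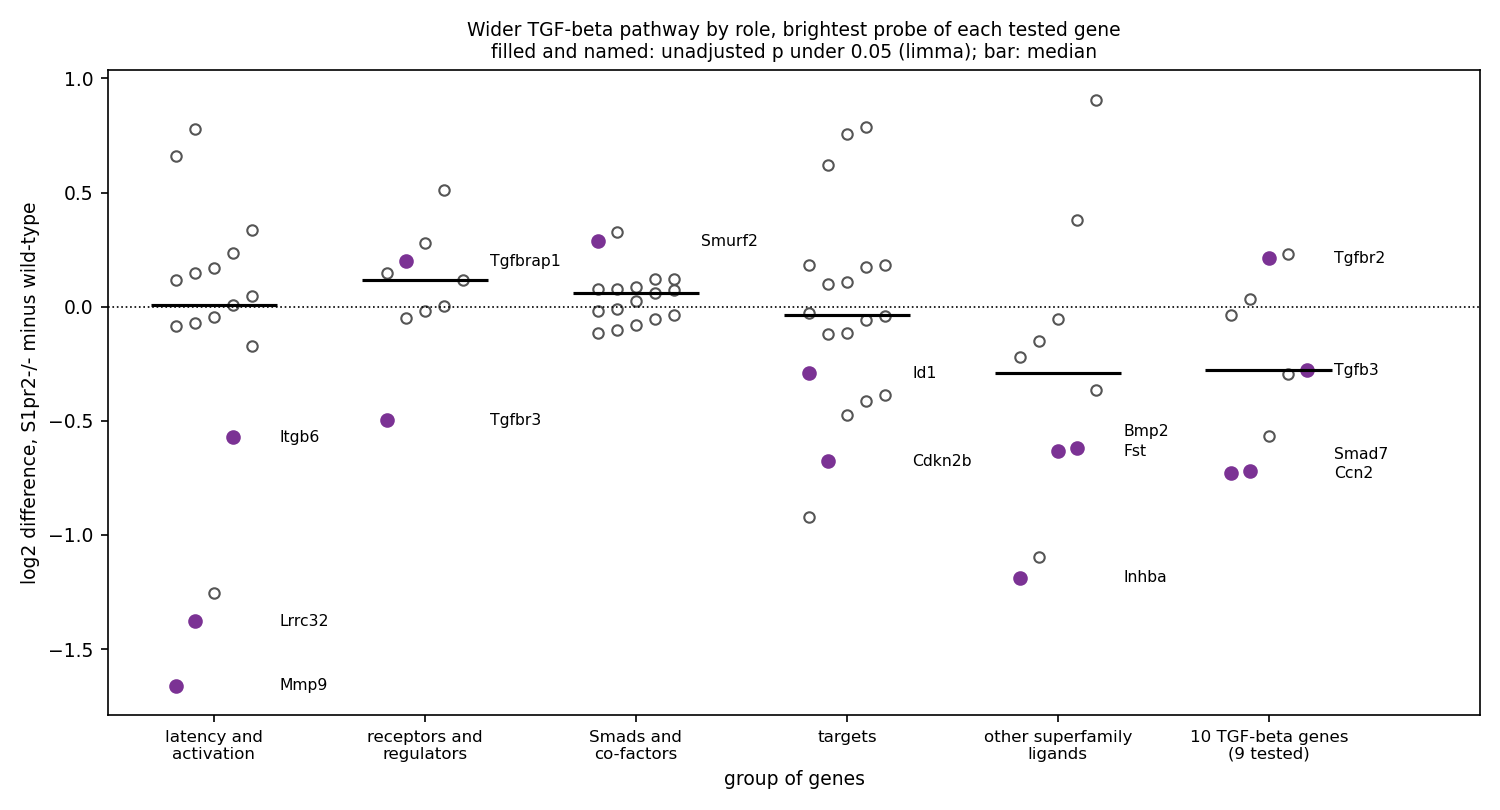
Difference between the genotypes (vertical axis, S1pr2-/- minus wild-type, log2) for the brightest probe of each tested gene of the wider pathway, by role, and for the 9 tested genes of the set of 10 at the right, with a bar for each group's median and filled, named points at an unadjusted p under 0.05 from limma. One target is part of its group's median and is not drawn. Single genes among the Smads and co-factors stray least from 0, though their median of 0.06 is further from it than the 0.01 of latency and activation. The latency and activation genes and the superfamily ligands reach furthest below 0, and the set of 10 has a median of -0.28.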

How the data were processed

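RNA of BALF cells was measured on 4 one-color Agilent arrays (1 slide, 1 scan). The authors deposited background-corrected intensity per spot (Feature Extraction 10.7.3.1 in the submitters' notes, while the file headers name another version and scanner) and a table of log2 values, used as an alternative. Set against the scanner files, it held scaled log2 intensity centred on the wild-type mean of each probe (within 0.01 for 100% of probes, column medians 0.02, -0.02, -0.06 and -0.03).

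Each array was scaled to its 75th percentile, ratios were set to at least 0.01 and log2 was taken. Outlier spots (115 to 273 per array) were left out, 0 spots were saturated, and spots of a probe were averaged. The share of probes well above background ran from 67.6% to 72.2%. Accessions named 69.6% of probes (98.3% of NM accessions) through a RefSeq table of GRCm38.p6. Because the array design is on another build, probe coordinates are left out. A probe was tested if measured on every array and, on both arrays of a genotype, well above background, with limma 3.58.1 in R 4.3.3 (lmFit, eBayes, Benjamini-Hochberg over all probes). The script was tested on simulated data. The brightest probe stood for a gene. Precision is limited by the number of arrays.

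Named were the 10 genes with every probe, S1pr2, and genes of the wider list with an unadjusted p under 0.05 and a difference of at least 0.5, or above background in 1 genotype alone. A further gene that met the rule is counted in its list but not reported here. Marker genes, genes at the floor, collagen genes, Smad2 and Smad4 were named outside that rule, after their values were seen. The genes, lists and tests were chosen with earlier results of these data known. Alternatives were normexp background correction (offset 50, on median signals, since the files used here hold no mean signal), quantile normalization, the percentile over probes detected on all arrays (detected probes in the text), the authors' log2 values, no floor, no filter, probes detected on all arrays, outlier spots kept, the methods' t-test, a trended variance, the mean over a gene's probes, the replicate number as a block, and each array left out, where the lone array was assumed to vary like the others.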

Additional observations from a re-analysis of the deposited data

How the results depend on the processing

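At an adjusted p under 0.05 limma called 0 probes lower and 0 higher (1518 and 1083 unadjusted), and 1 and 1 under normexp. The 10 genes had 0 calls under every alternative. At an unadjusted p under 0.05, Tgfbr2 was no longer counted (0 genes higher, not 1) with the authors' log2 values, no floor, probes detected on all arrays, the mean over probes and any array left out. The 3 lower genes became 1 to 4 with an array left out, 1 without wild-type replicate 2 and 1 without S1pr2-/- replicate 2, and the median over the tested genes ranged from -0.30 to -0.026 (the latter without S1pr2-/- replicate 2). In the wider list, 9 lower and 3 higher became 4 lower with the methods' t-test, 5 higher under quantile normalization, and 3 to 8 lower and 2 to 5 higher with an array left out (3 lower without wild-type replicate 2, 5 higher without S1pr2-/- replicate 2), with medians from -0.03 to 0.01 with an array left out and 0.02 under quantile normalization. Normexp gave 13 lower and 4 higher. Over all probes the unadjusted balance was 1050 lower and 1709 higher under quantile normalization. The sign turned for Tgfbr1 (0.023 under normexp, 0.083 as the mean over probes), for Tgfb2 (-0.0099 as the mean over probes, -0.29 without wild-type replicate 2, -0.45 without S1pr2-/- replicate 2, and up to 0.52 with another array left out) and for Thbs1 (0.15 without S1pr2-/- replicate 2, and down to -1.29 with another array left out). With S1pr2 among them, the differences of named genes kept sign and side of the unadjusted threshold in 229 cases, passed it in 3 and lost it in 49. The cause was not tested.

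Whether same-numbered arrays shared more than a number is not given in the sources used here (correlation of their deviations 0.187, over 2 pairs). A replicate block left limma with 0 probes called. Under it, 0 of the 10 genes was higher and 2 lower at an unadjusted p under 0.05, and 5 genes of the wider list were lower and 6 higher. Under normexp the dim probes of Itgb6, Mmp9 and Bmp2 gave -0.29, -0.90 and -0.33 in place of -0.57, -1.66 and -0.62.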
